A study of Mus musculus with 31 samples.

Results

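Neuropeptide precursor genes were followed across a panel of recombinant inbred mouse strains: Npy, Trh, Cartpt, Pmch, Avp, Oxt, Sst and Gal. They were taken from a list of peptides of hypothalamic neurons and interneurons, and all 8 were present by symbol in the platform annotation, among 15096 named genes. Each was measured by 1 probe. The tested RNA came from whole brain of 31 BXD/TyJ strains, which are inbred lines descended from crosses between C57BL/6J and DBA/2J, and the reference RNA came from whole brain of C57BL/6J. All mice were males of 8 weeks, and each strain's RNA was a pool of 3 animals. Strain RNA carried Alexa Fluor 647 and reference RNA carried Alexa Fluor 555 on every 2-colour glass array, with 1 array per strain and no dye swap. A value here is a log2 ratio of strain over C57BL/6J. That direction is likely from the titles and the order of the channels but is not settled, and the base of the logarithm was taken as 2. In the opposite direction all signs and ranks would turn, whereas correlations would not.

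Neuropeptides are made as precursor proteins, cut by convertases inside secretory granules and released to act on G protein-coupled receptors. Neurons of the hypothalamus make many of them. Npy encodes neuropeptide Y, which stimulates feeding, and Pmch encodes melanin-concentrating hormone of the lateral hypothalamus, also a stimulant of feeding. Cartpt encodes the CART peptides, which reduce food intake, and Gal encodes galanin, a mostly inhibitory peptide found with several other transmitters. Avp and Oxt encode vasopressin and oxytocin, which magnocellular neurons carry to the posterior pituitary. Trh encodes thyrotropin-releasing hormone, which drives thyrotropin release, and Sst encodes somatostatin, which inhibits growth hormone release. Npy and Sst are also classical markers of cortical GABA interneurons, so whole-brain RNA mixes hypothalamic and cortical sources of these mRNAs. In such bulk RNA, fewer cells of a type and less RNA per cell cannot be told apart.

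Sequences upstream of Avp, Sst, Gal and Cartpt are shown because the pairs of strain profiles described below turn on these 4 genes. Each is the 250 bases before the start that the RefSeq promoter table gives for the gene on GRCm38.p6, 5′ to 3′ on the gene's own minus strand. For Avp and Gal that start is the end of the annotated gene span, whereas for Sst and Cartpt it lies inside a longer span. The windows are chr2:130582589-130582838 for Avp, chr16:23890845-23891094 for Sst, chr19:3414545-3414794 for Gal and chr13:99900684-99900933 for Cartpt. Capitals mark matches to TGACGTCA (the cAMP response element), CACGTG (an E-box) or TATAAA, searched on both strands.
Avp: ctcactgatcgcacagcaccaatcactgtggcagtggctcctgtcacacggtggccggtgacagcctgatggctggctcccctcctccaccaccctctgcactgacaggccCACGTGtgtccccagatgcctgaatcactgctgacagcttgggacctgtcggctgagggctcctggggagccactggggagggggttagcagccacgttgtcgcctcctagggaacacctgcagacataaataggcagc
Sst: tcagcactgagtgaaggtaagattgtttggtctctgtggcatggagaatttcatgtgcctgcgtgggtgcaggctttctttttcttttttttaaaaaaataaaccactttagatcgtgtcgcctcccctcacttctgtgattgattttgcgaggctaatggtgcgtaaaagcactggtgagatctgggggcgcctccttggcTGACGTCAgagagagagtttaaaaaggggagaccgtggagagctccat
Gal: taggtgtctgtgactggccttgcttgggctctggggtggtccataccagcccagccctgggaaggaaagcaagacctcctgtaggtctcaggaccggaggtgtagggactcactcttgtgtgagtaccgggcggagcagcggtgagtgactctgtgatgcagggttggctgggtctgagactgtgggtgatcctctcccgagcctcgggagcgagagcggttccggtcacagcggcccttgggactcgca
Cartpt: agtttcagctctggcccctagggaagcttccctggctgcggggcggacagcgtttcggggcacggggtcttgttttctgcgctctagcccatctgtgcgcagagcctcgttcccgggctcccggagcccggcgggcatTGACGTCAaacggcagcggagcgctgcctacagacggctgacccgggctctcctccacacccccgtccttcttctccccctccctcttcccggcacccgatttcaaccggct
TGACGTCA occurred in the windows of Sst and Cartpt, at −48 and −112 from that start and within the annotated gene spans, and in 1.55% of 32851 mouse promoter windows of the same length. CACGTG occurred in that of Avp, at −139, and in 6.02% of all windows. The Gal window held none of these letters. TATAAA, present in 12.4% of all windows, was found among the 8 peptide genes only upstream of Pmch, at −27. A match is a run of letters in a window and no measure of binding.

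Arrays did not form a single cloud. On the first principal component of all features, 7 arrays (BXD38, BXD36, BXD28, BXD23, BXD20, BXD8 and BXD6) stood apart, a component with 28.7% of the variance. On the second component, with 11.9%, another 8 arrays (BXD42, BXD40, BXD39, BXD34, BXD33, BXD27, BXD22 and BXD15) stood apart, and 16 arrays remained. The labels name no batch, and with 1 array per strain a strain cannot be told apart from its array. P-values therefore measure the spread between these arrays. Sets of arrays were found from all features, the peptide genes included, so differences between sets are given as description. Spot intensities were not analysed here, so no absolute level of any of these mRNAs is known, and the number of arrays limits the precision.

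The first comparison asked whether the peptide genes differed on average between the BXD strains and C57BL/6J. Mean log2 ratios were positive for 6 of the 8 genes and negative for Cartpt and Pmch, and all 8 passed limma's moderated test against 0. This count has to be read against the whole array, where 42.1% of 21262 features had a positive and 33.9% a negative call, 76.1% in all. No member's probe lay at the eighth place of a run of 8 spots, where probes correlated with each other over strains (mean r within array sets 0.0600, against 0.00095 for all probe pairs). Genes of the lists and of the nearest profiles named below are marked where a probe is known to lie there. Places are not given here for neighbours on the chromosome or for 1 of the 2 probes of Tfrc.

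Among the feeding peptides, Npy ran from −0.12 in BXD27 through a median of 0.29 to 0.95 in BXD38. Its mean was 0.38 ± 0.056 (SE, n = 31; limma adjusted p = 3.19e-07), and 29 strains lay above 0. Nearly all strains thus had a positive ratio. Cartpt ran from −1.51 in BXD20 through −0.39 to 0.26 in BXD18. Its mean was −0.42 ± 0.068 (SE, n = 31; limma adjusted p = 1.52e-06), with 27 strains below 0. Pmch ran from −1.04 in BXD18 through −0.30 to 0.47 in BXD6. Its mean was −0.30 ± 0.058 (SE, n = 31; limma adjusted p = 1.86e-05), with 28 strains below 0. BXD18 was thus the highest strain for Cartpt and the lowest for Pmch. Gal ran from −0.23 in BXD38 through 0.15 to 1.08 in BXD5, with BXD32 next at 0.79. Gal averaged 0.23 ± 0.051 (SE, n = 31; limma adjusted p = 0.000194), and 25 strains were above 0.

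The hormones of the posterior pituitary differed in their spread. Avp ran from −0.54 in BXD23 through 0.52 to 1.26 in BXD1, with BXD18 next at 1.25. Its mean was 0.43 ± 0.091 (SE, n = 31; limma adjusted p = 8.17e-05), and 23 strains lay above 0. Oxt ran from −0.21 in BXD36 through 0.10 to 0.75 in BXD6. Most strains lay near C57BL/6J for oxytocin, with only BXD6, BXD1 (0.70), BXD20 (0.65) and BXD8 (0.53) above 0.5. Oxt averaged 0.17 ± 0.043 (SE, n = 31; limma adjusted p = 0.000642), with 21 strains above 0.

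Of the peptides that act on the anterior pituitary, Trh was the steadiest of the 8 genes. It ran from −0.07 in BXD12 through 0.17 to 0.45 in BXD38, a 1.44-fold span on the assumed base. Trh averaged 0.16 ± 0.024 (SE, n = 31; limma adjusted p = 2.12e-07), and 29 strains were above 0. Only 0.550% of named genes had a smaller SD over strains than Trh, at 0.110. Sst had the widest span of the 8 from lowest to highest strain, though not the largest SD. It ran from −0.37 in BXD8 through 0.11 to 1.57 in BXD32, with BXD11 next at 1.42. That is a 3.82-fold span, and the mean was 0.26 ± 0.082 (SE, n = 31; limma adjusted p = 0.00459) with 21 strains above 0. The median of Sst lay well below its mean, whereas those of Trh were alike.

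Tested against a 1.2-fold change, limma called 0 of the 8 genes, against 27.9% of features. Unadjusted p was under 0.05 for 3 of them (Cartpt, Npy and Avp), as it must be for at least the same 27.9% of features. The adjusted p of Cartpt was 0.0506. With the array set as a random block, Npy, Trh and Cartpt kept their calls (limma adjusted p = 0.0158, 0.0348 and 0.00390), against 39.7% of features, and the other 5 did not. Their adjusted p with the block was 0.125 for Avp, 0.167 for Pmch, 0.188 for Oxt, 0.264 for Gal and 0.506 for Sst.

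Spread over strains was large for several of these genes. The SD was 0.529 for Avp and 0.473 for Sst, wider than in 94.1% and 90.4% of named genes, and 0.391 for Cartpt (81.5%). Pmch followed at 0.330, Npy at 0.318, Gal at 0.289 and Oxt at 0.240, against a median of 0.268 over named genes. From highest to lowest strain, the span was 3.48-fold for Avp, 3.41-fold for Cartpt, 2.84-fold for Pmch, 2.48-fold for Gal, 2.10-fold for Npy and 1.95-fold for Oxt.

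Much of this spread lay between the sets of arrays. Avp showed it most: its log2 ratio was −0.54 to −0.12 on the 7 arrays apart on the first component, against −0.01 to 1.26 on the other 24. It was the only member whose values on the 7 arrays did not overlap the others, and 2.09% of named genes had all 7 arrays below the other 24, with 2.28% above. Between-set differences held 66.2% of the variance of Avp, 57.7% of that of Cartpt, 44.9% of Sst, 42.3% of Gal and 42.2% of Npy. The shares were 26.4% for Pmch, 9.25% for Oxt and 2.52% for Trh, against a median of 33.9% over named genes.

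The direction differed by gene. Median Npy was 0.80 on the 7 arrays, 0.14 on the 8 and 0.30 on the 16, so it was highest where Avp was lowest. Pmch also had its highest median on the 7 arrays, with −0.03 there, −0.25 on the 8 and −0.41 on the 16. Sst went the opposite way, with medians of −0.19, 0.03 and 0.43 in the same order of sets, and so did Gal with 0.00, 0.13 and 0.44. Cartpt had medians of −0.74, −0.51 and −0.15, and Oxt 0.21, 0.17 and 0.06. Trh stayed level at 0.17, 0.19 and 0.16. Without the 7 arrays all 8 genes still passed limma's test, as did 79.4% of features, with higher means for Avp (0.66) and Sst (0.39) and a mean nearer 0 for Cartpt (−0.29).

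**Figure D1:**
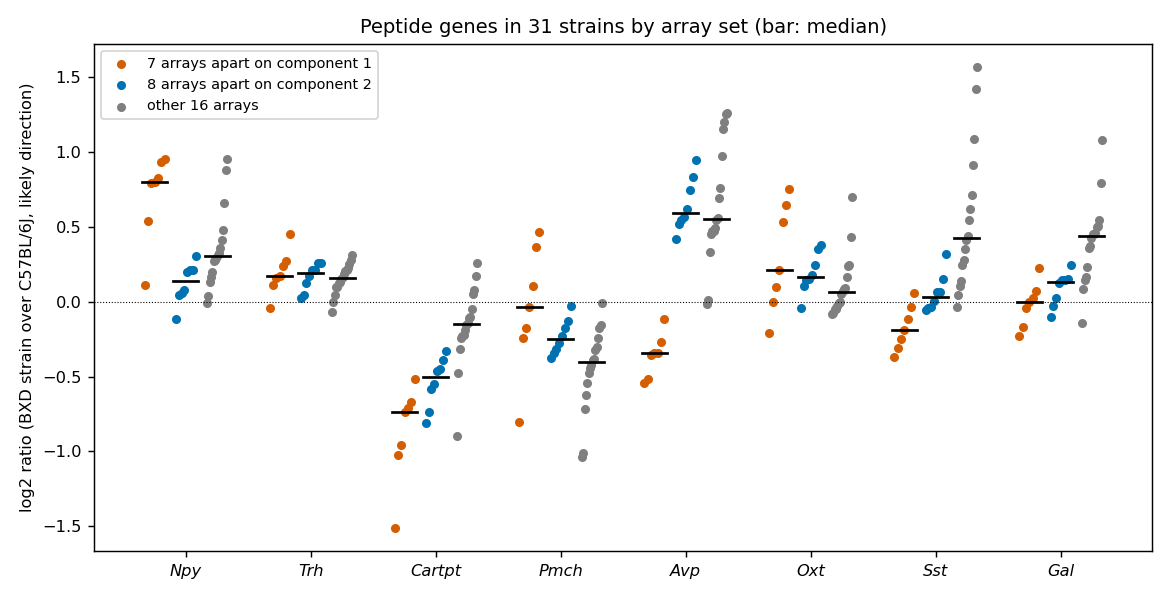
Log2 ratio of each peptide gene (horizontal axis) in each of the 31 strains (points), split by array set, with a bar at the median of each set. The 7 Avp values at the left of its group all lie below 0 and below every other strain, while the Trh points stay between −0.07 and 0.45 in all sets.

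Strain ranks showed which lines stood at the ends for several peptides. BXD1 was among the 5 highest strains for Trh, Avp, Oxt and Sst, and BXD32 for Npy, Avp, Sst and Gal. BXD12 (Cartpt, Sst, Gal) and BXD18 (Npy, Cartpt, Avp) were there for 3 genes each, and 10 strains for none. At the low end, BXD6 was among the 5 lowest for Cartpt, Avp, Sst and Gal while it had the highest Pmch and Oxt of all strains. BXD8 was among the 5 lowest for Trh, Cartpt, Avp and Sst, and BXD16, BXD36 and BXD38 for 3 genes each. Of these 5 low strains, 4 belong to the 7 arrays apart on the first component. No strain was high or low throughout: 16 of 31 had peptides at both ends. Mean rank over the 8 genes ran from 8.50 in BXD1 and 8.88 in BXD32 to 20.2 in BXD8, where 1 is the highest. With 1 array per strain, neighbouring ranks cannot be told apart.

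**Figure D2:**
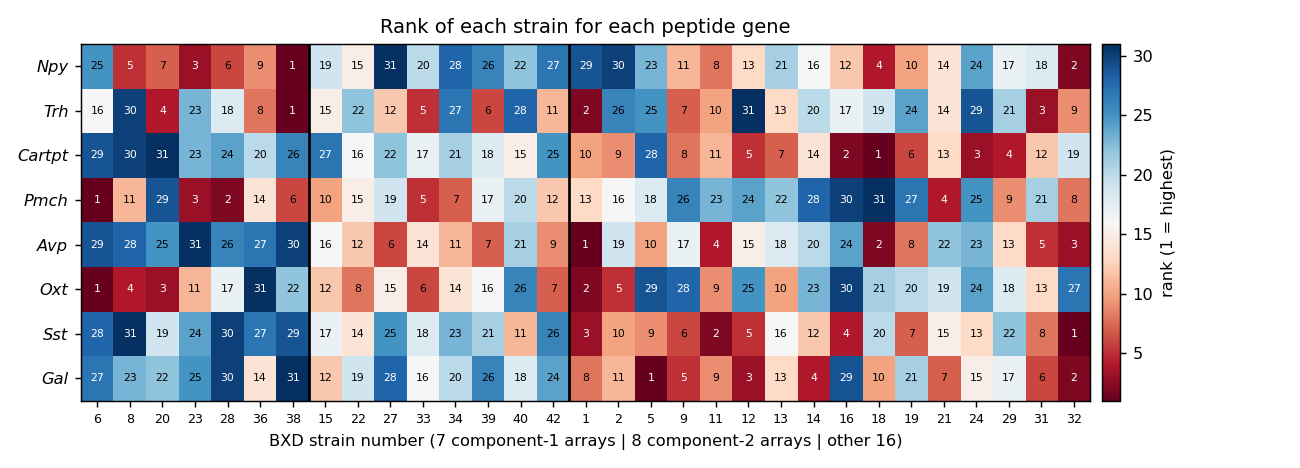
Rank of every strain (columns, strain number) for every peptide gene (rows), 1 being the highest log2 ratio of 31, with columns grouped by array set. The Avp row has ranks 25 to 31 over the 7 arrays at the left, where the Npy row has ranks 1 to 9 in all but BXD6.

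The second comparison asked whether peptide genes varied together over strains. Values were centred on the mean of each array set, and each of the 28 pairs was tested by limma with array set as a factor, adjusted over 170088 tests of all features on the 8 genes. No pair passed (0 of 28), where a call needed both directions, and adjusted p ran from 0.0724 to 1.00. Of all tests, each in a single direction and so held to a looser rule, 0.469% passed. At an unadjusted p under 0.05, limma had 2 of the 28 pairs, against 11.8% of all fits. By permutation within sets, 2 pairs had an unadjusted p under 0.05 by Pearson's r and 3 by Spearman's rho. For permutation p the share over all gene pairs is not given here. There were 15 positive and 13 negative pairs. The mean r was 0.0320 for peptide pairs and 0.00091 for all pairs of named genes, and the median size of r was 0.188 against 0.154.

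The pair nearest to the threshold was Cartpt with Gal, r = −0.594 (permutation p = 0.00122; rho = −0.444, permutation p = 0.0172; limma adjusted p = 0.0724). Higher galanin ratios thus went with lower CART ratios, without passing the test. Of all pairs of named genes, 0.637% had an r of at least this size. By set, r was −0.0777 on the 7 arrays, −0.0308 on the 8 and −0.840 on the remaining 16. BXD5 had the highest Gal (1.08) and, among those 16, the lowest Cartpt (−0.90), and without it r was −0.405. Without BXD20 and BXD18, the strains farthest from the median of Cartpt, r was −0.676. The pair passed limma's test without the 7 arrays (r = −0.749, adjusted p = 0.0120), without BXD20 (adjusted p = 0.0454) and without BXD36 (adjusted p = 0.0191). Each of these settings kept BXD5. When single strains were left out, the limma adjusted p ran from 0.0191 to 0.398. With the first 3 principal components in place of the set term, r was −0.142 (limma adjusted p = 0.920). Pooled over all 31 strains with no set term, r was 0.189.

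Vasopressin, somatostatin and galanin formed the opposite case. Pooled over the 31 arrays these 3 pairs were called: Avp with Sst at r = 0.572 (limma adjusted p = 0.00716), Sst with Gal at 0.574 (adjusted p = 0.00908) and Avp with Gal at 0.528 (adjusted p = 0.0194). Of all pairs of named genes, 6.01%, 5.90% and 8.81% had a pooled r of at least these sizes, so such values were common on these arrays. Within array sets r was 0.361, 0.246 and 0.333 for the same pairs, with permutation p of 0.130, 0.303 and 0.146, and none passed. Leaving out BXD32 alone gave 0.230 for Avp with Sst and 0.0781 for Sst with Gal, and leaving out BXD16 gave 0.173 for Avp with Gal. On the 8 arrays apart on the second component, Avp correlated at −0.747 with Sst and at −0.921 with Gal, opposite to 0.428 and 0.436 on the 16 arrays. Sst with Gal had r of 0.487, 0.496 and 0.221 in the 3 sets, and 0.0627 overall within sets without BXD32 and BXD11, the strains with the most Sst. All 3 probes lay at the seventh place of a run of 8 spots, a place at which probe pairs had a mean r of 0.00132. After subtraction of the median at each place, which was tried after values were seen, the same pairs gave 0.361, 0.242 and 0.328.

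Avp and Oxt are neighbours on chromosome 2, at chr2:130580620-130582588 on the minus and chr2:130574519-130577054 on the plus strand (RefSeq, GRCm38.p6). They are transcribed towards each other across a gap of 3565 bases, and both are expressed in magnocellular neurons. Within array sets r was 0.306 (permutation p = 0.0701; rho = 0.266, permutation p = 0.125; limma adjusted p = 0.540), positive in each set at 0.400, 0.109 and 0.392. Without BXD1 it was 0.159. Pooled over all arrays r was −0.0527, with the lowest Avp and the highest Oxt median both on the 7 arrays. Trh with Avp had r = 0.355 (permutation p = 0.0371; rho = 0.374, permutation p = 0.0412) and an adjusted p of 0.529. Cartpt with Oxt had rho = −0.440 (permutation p = 0.0228) and r = −0.333, which was −0.506 without BXD5 and −0.220 without BXD20. Npy and Sst, which mark overlapping interneurons, had r = 0.327 (permutation p = 0.108; limma adjusted p = 0.495) and 0.101 without BXD32, and Npy with Cartpt had 0.0892.

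**Figure D3:**
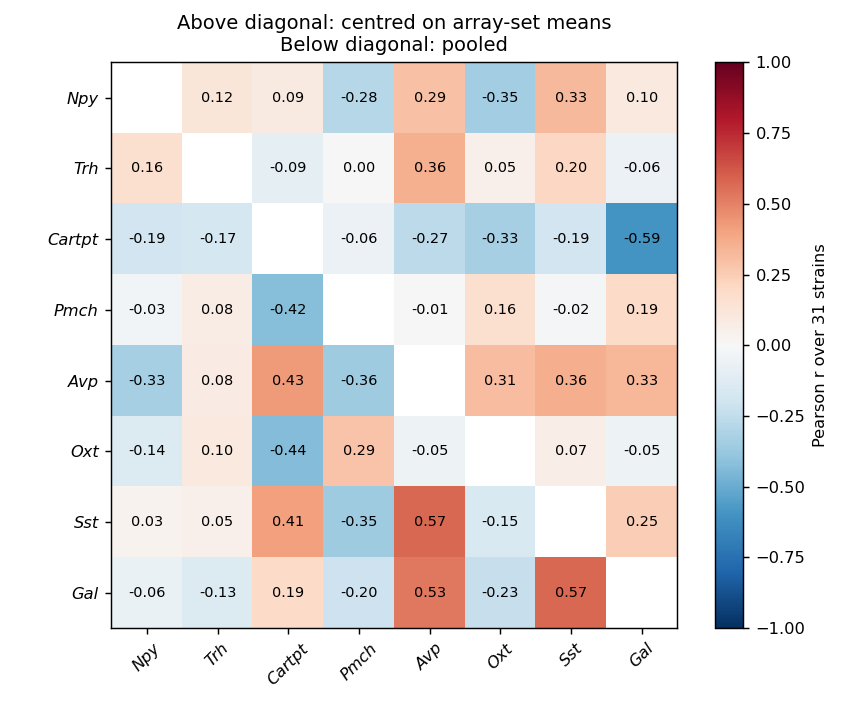
Pearson r over 31 strains for each pair of peptide genes, centred on array-set means above the diagonal and pooled below it. Cartpt with Gal is −0.59 above the diagonal and 0.19 below it, and the 3 pairs of Avp, Sst and Gal lie between 0.25 and 0.36 above and between 0.53 and 0.57 below.

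**Figure D4:**
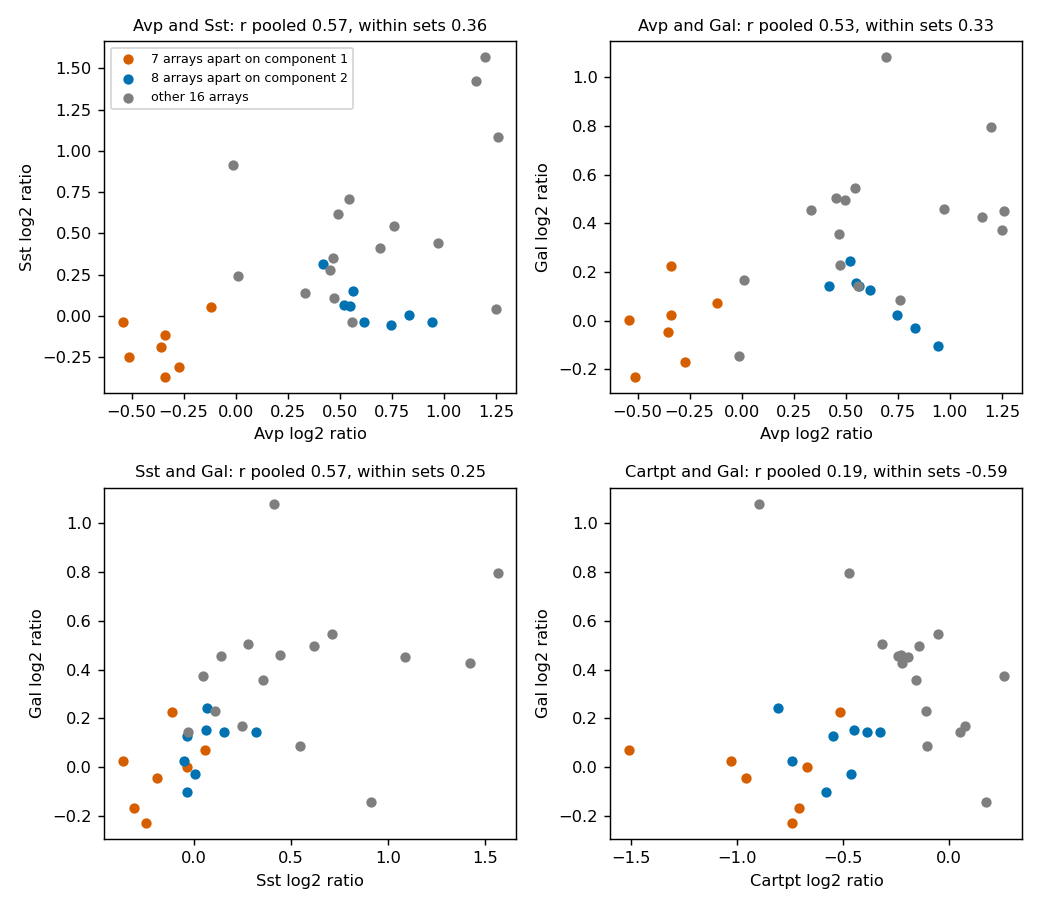
Log2 ratios of 4 gene pairs in 31 strains, coloured by array set, with the pooled and the within-set r in each title. The 7 arrays at the lower left of the Avp panels lie apart from the other 24, and BXD5 is the point with the highest Gal at the left of the 16 grey points for Cartpt.

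Oxytocin was set beside hormone genes of the anterior pituitary, a choice made after the data were seen. Gh, encoding growth hormone, had a log2 ratio above 1 on 5 arrays (BXD6, BXD20, BXD11, BXD1 and BXD36), from 1.35 to 3.37, and at most 0.27 on the other 26. Median Oxt was 0.645 on those 5 arrays and 0.0941 on the other 26. Within array sets Oxt correlated with Gh at r = 0.605 (permutation p = 0.00654; rho = 0.448, permutation p = 0.0344; limma adjusted p = 0.0490 over all features). Over the 32 relations of 8 peptides with 4 pituitary genes, the adjusted permutation p was 0.0537. The value was alike in the 3 sets at 0.571, 0.644 and 0.703, but fell to 0.336 without BXD6 and BXD1, the strains farthest from the median of Oxt. Oxt correlated with Cga, the shared alpha subunit of pituitary glycoprotein hormones, at 0.581 and with Pomc, the corticotropin precursor, at 0.507, against 0.320 with Prl, the prolactin gene. Without BXD6 and BXD1 these were 0.334, 0.202 and −0.318. By set, Oxt with Cga had r of 0.622 on the 7 arrays, −0.154 on the 8 and 0.794 on the 16. In the same order, Prl had 0.317, −0.263 and 0.492, and Pomc 0.597, 0.337 and 0.436. BXD6 had the highest ratios of Gh, Prl, Cga and Pomc alike, at 3.37, 2.58, 2.42 and 2.19. BXD36, with a Gh ratio of 1.35, had the lowest Oxt of all strains. Avp, made in the same kind of neuron, correlated with Gh at 0.335 and with Prl at 0.0339. The relation with Gh was not particular to Oxt. Sst correlated with Gh at 0.418 (permutation p = 0.00671, limma adjusted p = 0.283), with an adjusted permutation p of 0.0537 over the 32 relations. By set this r was 0.512 on the 7 arrays, −0.726 on the 8 and 0.622 on the 16. Without BXD32 and BXD11, the strains farthest from the median of Sst, it was 0.371. Npy had negative values with all 4, from −0.400 with Gh to −0.578 with Cga (limma adjusted p = 0.0698). The smallest adjusted permutation p of the 32 relations was 0.0525, shared by Oxt with Cga and Npy with Cga. For Npy, r ran from −0.921 to −0.804 on the 7 arrays, from −0.627 to 0.0347 on the 8 and from −0.441 to −0.00505 on the 16. Without the 5 arrays the mean of Oxt was 0.12 (limma adjusted p = 0.00212). The part of pituitary tissue in these values was not tested.

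**Figure D5:**
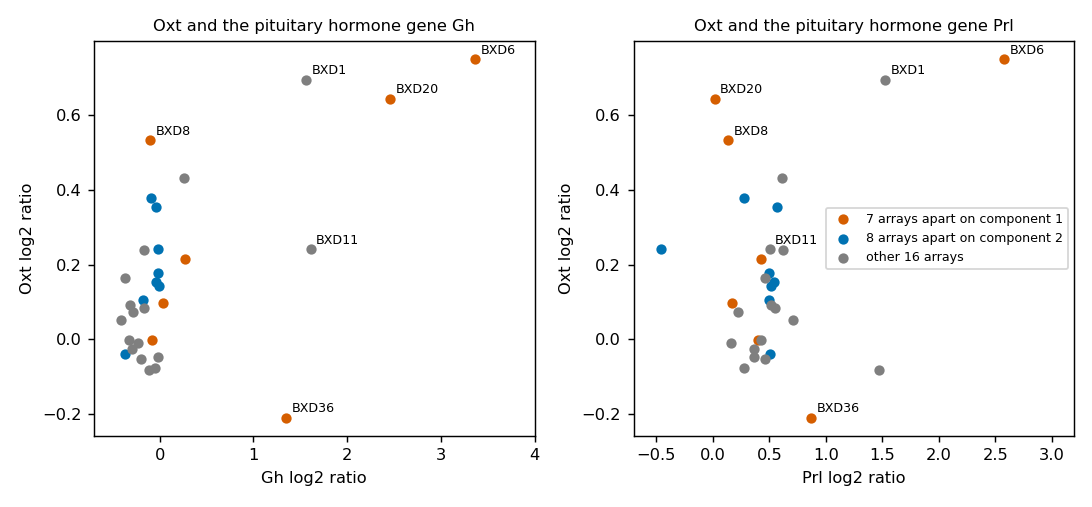
Oxt log2 ratio (vertical axes) against the log2 ratio of Gh (left) and Prl (right) in 31 strains, coloured by array set, with the 5 arrays above 1 for Gh and the array of BXD8 named. BXD6, BXD1 and BXD20 are high for both Oxt and Gh, while BXD36 has a Gh ratio of 1.35 and the lowest Oxt.

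Each peptide gene was also compared with all other features. A largest r picked from so many genes cannot be weighed against those of the 28 peptide pairs. After centring on set means, limma called 345 features with Gal (1.62% of 21261), 248 with Cartpt (1.17%), 93 with Sst (0.437%) and 55 with Avp (0.259%). Pmch had 21 (0.0988%), Npy 19 (0.0894%), Trh 9 (0.0423%) and Oxt 7 (0.0329%). The named genes among them numbered 243 for Gal, 193 for Cartpt, 66 for Sst, 43 for Avp and from 5 to 17 for the others. The genes nearest to Gal were Tex43 (r = 0.868), Ckb, the brain creatine kinase, at 0.841 and the vomeronasal receptor gene Vmn1r58 at 0.838. Nearest to Cartpt were Nmt2, an N-myristoyltransferase, at −0.821, 9030622O22Rik (at the eighth place) at −0.818 and Ercc4, a DNA repair nuclease subunit, at −0.816. Sst was closest to Fkbp8, an FK506-binding protein, at 0.852, Palm, which encodes paralemmin, at 0.818 on an eighth-place probe and Cmtm8 at 0.815. Without BXD32 and BXD11 Fkbp8 dropped to 0.675 while Palm had 0.826. Avp was closest to Ywhah, a 14-3-3 protein, at 0.792, the ATP synthase gene Atp5j2 at 0.788 and Xrcc4, a factor of DNA end joining, at 0.723.

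For the other peptides the nearest profiles were less close. Npy had Dexi at 0.714, Pemt, which makes phosphatidylcholine, at 0.701 on an eighth-place probe and Pitpnm2 at 0.677. Pmch had the AP-3 adaptor gene Ap3s2 at −0.720, the transferrin receptor gene Tfrc at 0.680 and the phosphatase subunit gene Ppp2r5c at 0.678. Oxt had the ubiquitin ligase gene Rnf19a at 0.717, the nucleotidase gene Nt5c1b at 0.709 and the tetraspanin gene Tspan32 at 0.701. Trh had the homeobox gene Tlx3 at 0.674, Sry at −0.665 and the gamma-secretase subunit gene Aph1c at 0.663. Over these 24 genes, rho ran from 0.527 to 0.795 in size. They were picked for the size of r. Of the 24, 22 passed limma's test over all fits, the exceptions being Pitpnm2 (adjusted p = 0.0537) and Tfrc (adjusted p = 0.102). No gene of the 24 was itself a peptide precursor or a peptide receptor of the lists below. Those lists hold 20 measured precursors and 18 receptors of 15096 named genes, so none would be likely among 24 in any case.

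Position on the chromosome was examined because BXD strains inherit long blocks from either parent. The genes lay at chr6:49822710-49829507 (Npy), chr6:92242061-92244650 (Trh), chr13:99898483-99910179 (Cartpt), chr10:88091072-88092374 (Pmch), chr16:23889573-23891342 (Sst) and chr19:3409915-3414544 (Gal). Up to 10 measured genes on each side of a peptide gene were compared with it, and limma called 0 in 153 comparisons (Avp with Oxt counted from both sides). At an unadjusted p under 0.05 there were 25, or 16.3%, against 11.8% of all fits. The nearest measured neighbours were Stk31 and Mpp6 for Npy (r = −0.0571 and −0.0955), Rbsn and Prickle2 for Trh (0.291 and 0.297), and Map1b and Mccc2 for Cartpt (0.126 and 0.0375). For Pmch they were Tyms-ps at −0.397 and Parpbp, which overlaps it, at 0.125. For Sst they were Rtp4 at −0.417 and Bcl6 at −0.0699, for Gal Cpt1a at 0.177 and Ppp6r3 at 0.154, for Avp Oxt and Ubox5 (−0.315), and for Oxt 4930473A02Rik (−0.134) and Avp. Npy and Trh share chromosome 6 at a distance of 42.4 Mb, and their r was 0.119.

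Genes of receptors, processing, related cells and neighbouring tissues were counted by the same test, to be read against 42.1% positive and 33.9% negative calls over all features. Of the peptides' receptors, 18 of 19 listed were measured, 7 were positive (38.9%), 3 negative (16.7%) and 8 not called, with a median of 0.09 against 0.038 over all features and 0.20 over the 8 peptides. The oxytocin receptor gene Oxtr had a mean of 0.81 ± 0.11 and the neuropeptide Y receptor genes Npy1r 0.47 ± 0.06, Npy4r 0.32 ± 0.05 and Npy5r 0.31 ± 0.04 (SE, n = 31), all positive by limma. Npy2r was negative at −0.92 on an eighth-place probe. For vasopressin, Avpr1a had 0.33, the renal receptor gene Avpr2 −0.62, and Avpr1b 0.13 without passing. Of the somatostatin receptor genes Sstr1 was positive at 0.27 and Sstr5, at the eighth place, negative at −0.40, and Sstr2, Sstr3 and Sstr4 did not pass. The galanin receptor genes Galr1, Galr2 and Galr3 (the last at the eighth place) lay between −0.05 and 0.06 and did not pass either. The receptors other than Sstr5, Npy2r and Sstr1 were singled out after their values were seen. Without the 7 arrays the list had 5 negative calls in place of 3, while 36.1% of features were negative and 43.2% positive.

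In the list of processing enzymes and granule proteins, 12 of 15 genes were measured, 2 were positive (16.7%), 5 negative (41.7%) and 5 not called (median −0.03). Without the 7 arrays, 5 were positive (41.7%). Pam, the enzyme that amidates peptides such as Npy, Avp, Oxt and Trh, had a mean of 0.88 ± 0.14 (SE, n = 31) and reached 2.60. Prcp, a carboxypeptidase, had −0.54, and Cadps, which primes granules for release, −1.13 on an eighth-place probe. Among 20 measured of 30 other peptide precursors, 7 were positive (35%), 6 negative (30%) and 7 not called, with a median of 0.06. Penk, the enkephalin precursor, had −1.27 and Npvf −1.37, both at the eighth place, and Nts, the neurotensin precursor, −0.76.

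The next lists cover the cells that make these peptides. Of 17 measured of 19 hypothalamic transcription factors, 4 were positive (23.5%), 7 negative (41.2%) and 6 not called (median −0.07). Nkx2-1 had −0.53 and Otp, required for neurons that make Avp, Oxt, Trh and Sst, −0.38, both at the eighth place, while Hmx2 had −0.34. Of 17 measured of 20 GABA interneuron markers, 6 were positive (35.3%), 7 negative (41.2%) and 4 not called (median −0.01). Dlx5 had 0.58 and was above 0 on all 31 arrays, the GABA-synthesis gene Gad2 had −0.60 and Sox6 −0.69, the last at the eighth place as was 1 of the probes of Gad2. The median of this list per array ran from −0.19 to −0.04 on the 7 arrays, and from −0.08 to 0.10 on the other 24.

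Markers of tissues that can be left on or lost from a dissected brain were counted too. Of 8 measured of 11 pituitary genes, 3 were positive (37.5%), 2 negative (25%) and 3 not called (median 0.15), with Ghrhr at 0.45, Fshb at −0.94 on an eighth-place probe and Pitx1 at −0.42. Of 6 measured of 11 choroid plexus genes, 3 were positive (50%), 3 negative (50%) and 0 not called (median 0.04), with the water channel gene Aqp1 at 0.31, the transthyretin gene Ttr at −0.43 and Kcne2 at −0.18. Per array the pituitary list had a median from −0.30 to 0.86 on the 7 arrays and from −0.24 to 0.44 on the other 24. That of the choroid plexus list ran from −0.14 to 0.14 and from −0.12 to 0.10. The part of these tissues in the peptide values was not tested.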

How the data were processed

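The deposited table holds 1 log2 ratio per spot and array (23040 spots, 31 arrays), and base and direction are not stated. The submitters' processing notes name R 2.0.0 and limma without their role. All columns had the same sorted values (largest difference 0), so the authors had quantile normalised the arrays, which removes any shift of a whole array. For background correction and spot filters, no method is given in the sources used here. Scanner intensities were not analysed.

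Probes with 1 symbol were averaged per gene, giving 15096 genes and, with 6166 other spots, 21262 features. With limma 3.58.1 in R 4.3.3, each feature's mean was tested against 0 (two-sided), which ignores the control's own spread and any effect of dye or spot. Each feature was also regressed on each peptide gene with array set as a factor, with Benjamini-Hochberg adjustment at 0.05 over all fits. A pair was called when both directions passed, and its larger adjusted p is given. Array sets were arrays with a score above 0.15 on the first or second component. The design gave this cut as a size, and it was applied only on the side of the farthest arrays. Permutation p (100000, two-sided, within sets, SciPy 1.17.1 and NumPy 2.4.6) accompany correlations.

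Members and lists were chosen with earlier results of these data known. Named genes were the 8 members, for each the 3 genes with the largest centred correlation, the nearest measured gene on each side, and the 3 list members with the smallest adjusted p per list. Alternatives left out array sets or single strains, blocked on set, changed centring, place, features, pooling or the fold tested. Leaving out arrays with high Gh, leaving out BXD5 and place subtraction for pairs were added after the data were seen.

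On simulated data of 21262 features, the mean test recovered 68% of genes shifted by 0.25 and 96% by 0.5, with 11 false calls. The regression on Avp recovered 47% at a correlation of 0.6 and 99% at 0.8, with 7 false calls. Simulated features were independent normal noise with each feature's SD, without array sets or shared components. These counts therefore do not give the number of false calls on the real arrays.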

Additional observations from a re-analysis of the deposited data

How the results depend on the processing

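Under the alternatives run, no mean of the 8 peptide genes changed sign. With the array set as a random block 2 positive and 1 negative call remained of 6 and 2, and against 1.2-fold 0 and 0. Leaving out single strains left 6 positive and 2 negative calls each time. The number of called peptide pairs, 0 within sets, was 3 with no set term, 1 without the 7 first-component arrays and 1 without the 5 arrays with high Gh (Cartpt with Gal, r = −0.735, adjusted p = 0.0158). It ran from 0 to 1 when single strains were left out. With no set term, 10 of the 28 pairs changed sign. Among the 5 pairs followed through every setting (Cartpt with Gal, Avp with Oxt, and the 3 of Avp, Sst and Gal), signs turned for Cartpt with Gal (0.189) and Avp with Oxt (−0.0527) with no set term, and for Avp with Gal (−0.0187) and Sst with Gal (−0.0929) with the first 3 components removed in place of the set term. The cause was not tested. Without the 7 arrays, negative receptor calls numbered 5 in place of 3 and positive processing and granule calls 5 in place of 2, and here too the cause was not tested. No paired analysis was possible because all 31 arrays form 1 group. Signal over background was not analysed here.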

Other observations

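Pairs of probes close together on the array correlated more than distant ones. Within array sets the mean r was 0.113 for consecutive spots and 0.0347 for spots at the same position of different blocks, against 0.00095 for all probe pairs. Of the peptide genes, Trh and Gal lay on consecutive spots and had r = −0.0570, whereas Npy and Trh (0.119) and Sst and Gal (0.246) each shared a position in different blocks.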
